A study of Rattus norvegicus with 9 samples.

Results

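The control culture of the study consisted of neonatal rat ventricular myocytes carrying an adenovirus for GFP, a fluorescent protein with no known role in heart muscle. It was represented by 3 of the 9 messenger RNA libraries, labelled GFP 1, 2 and 3 and called GFP1, GFP2 and GFP3 here, and all 3 were chosen by that label alone. The cells came from Sprague-Dawley rat pups aged 1 or 2 days and were plated at 150000 cells per well on gelatin. They spent 48 h in medium with 3% fetal bovine serum, then received 8 µL of virus in 1 mL of medium without serum, and RNA was collected 48 h later. All 3 libraries therefore share the virus, the expressed GFP and the withdrawal of serum, and uninfected cells were not analysed here. The other 6 libraries carried viruses for Nfya or Nfe2l1 and enter no value below. The labels do not say whether the 3 replicates came from separate cultures or isolations, so the spread among them may be technical.

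Neonatal ventricular myocytes are a widely used primary model of heart muscle, because at this age the cells can be isolated, plated and transduced and they keep beating in culture. The contractile unit, the sarcomere, is built from thick myosin filaments and thin actin filaments anchored at the Z-disc, and calcium released from the sarcoplasmic reticulum switches it on through troponin. Around birth rodent heart muscle exchanges fetal isoforms of several of these proteins for adult ones and moves from glucose and lactate towards fatty acids as fuel. Cardiac preparations from pups also hold fibroblasts, endothelial and mural cells, so a culture is described by both its myocyte and its other transcripts.

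The 3 libraries held 6543084, 6782414 and 5712123 counts over 28935 genes, GFP3 being the shallowest. The values used for levels are the deposited RPKM, reads per kilobase of gene length and per library count, listed for 14986 genes, and a rank is the place of a gene's mean RPKM among these. At least 1 RPKM in each library was reached by 12913 genes, 44.6% of the genes in the count table, and these are called detected. This share is the background for each count of detected genes below. The scale of the values was narrow: the median mean level was 17.7 RPKM, the 99th percentile was 108 RPKM and the highest gene reached 225 RPKM. No gene exceeded a mean of 1.42 counts per base of its length, 15 genes exceeded 1 and 658 genes exceeded 0.5. The 10 genes with most counts held 1.11% to 1.18% of a library. How duplicate reads were handled is not given in the sources used here, and its part in this narrow scale was not tested.

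GFP3 also stood apart from GFP1 and GFP2 in a way that followed counts per base. Only genes with at least 10 counts in each library enter the following medians. The share of counts of GFP3 relative to GFP2 had a median log2 ratio of -0.14 over the 3196 genes below 0.05 counts per base. It was 0.15 over the 61 genes above 0.8 counts per base. The same medians for GFP1 against GFP2 were -0.0028 and 0.031. Genes with many counts per base, among them most contractile and mitochondrial genes, thus read highest in the shallowest library, and this accompanies nearly every abundant gene described below.

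**Figure D1:**
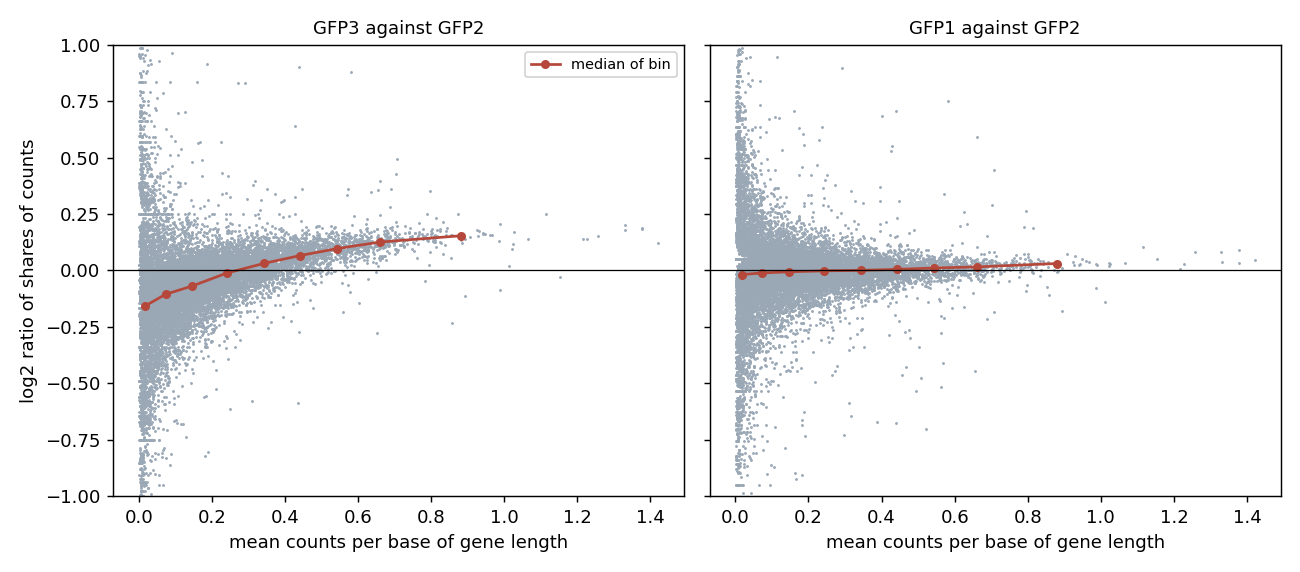
Log2 ratio of a gene's share of counts between 2 libraries (vertical axis) against its mean counts per base of length over the 3 GFP libraries (horizontal axis), for genes averaging at least 10 counts over GFP2 and GFP3, each grey point being 1 gene and the red line joining medians of 9 bins. Values beyond 1 in either direction are not drawn. The median of GFP3 against GFP2 climbs from below 0 to 0.15 with counts per base, and that of GFP1 against GFP2 stays within 0.04 of 0.

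Cardiac troponin T had the highest mean RPKM, and the 4 markers of cardiac muscle used to check the label were all detected. Tnnt2, which ties troponin to tropomyosin on the thin filament, read 223, 216 and 235 RPKM in GFP1, GFP2 and GFP3 and held rank 1. Its lead was narrow: the mitochondrial ND5 averaged 218 ± 15.4 RPKM against 225 ± 9.68 RPKM for Tnnt2 (SD, n = 3). In GFP3, ND5 read 236 RPKM, just above Tnnt2. Nppa, the atrial natriuretic peptide, read 160, 156 and 170 RPKM and held rank 13. Tnnt2 and Nppa were both highest in GFP3 and lowest in GFP2. Actn2, the actinin that crosslinks actin at the Z-disc, read 137, 136 and 150 RPKM (rank 28). Myh6, the alpha myosin heavy chain, read 59.1, 55.2 and 62.9 RPKM and held rank 1549, below the other markers yet at the 89.7th percentile of the genes listed.

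The windows upstream of some of the highest muscle transcripts show how their promoters read. RefSeq (build GRCr8) gives the 250 bases before the annotated start, printed 5′ to 3′ on the gene's strand, for Tnnt2 (chr13:49818873-49819122, plus strand) and Nppa (chr5:163711934-163712183, plus strand), the leading markers. Myl3 (chr8:119616844-119617093, plus strand) and Acta1 (chr19:68784195-68784444, minus strand) are the contractile genes of highest level whose window holds a CArG box, the sequence that serum response factor is known to bind. Capitals mark matches to the TATA box letters TATAAA, the NF-Y core CCAAT, the TEAD core CATTCC, the GATA letters AGATAA, the CArG box or the MEF2 site, all searched on both strands.
Tnnt2: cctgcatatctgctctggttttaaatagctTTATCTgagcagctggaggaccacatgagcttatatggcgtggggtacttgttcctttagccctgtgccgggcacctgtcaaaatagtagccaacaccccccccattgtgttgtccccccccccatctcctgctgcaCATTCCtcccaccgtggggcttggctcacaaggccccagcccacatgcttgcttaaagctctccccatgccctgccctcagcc
Nppa: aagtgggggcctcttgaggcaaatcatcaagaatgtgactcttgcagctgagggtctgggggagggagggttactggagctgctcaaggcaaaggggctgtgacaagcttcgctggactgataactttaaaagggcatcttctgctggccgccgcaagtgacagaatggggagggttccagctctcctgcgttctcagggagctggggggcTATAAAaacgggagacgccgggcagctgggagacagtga
Myl3: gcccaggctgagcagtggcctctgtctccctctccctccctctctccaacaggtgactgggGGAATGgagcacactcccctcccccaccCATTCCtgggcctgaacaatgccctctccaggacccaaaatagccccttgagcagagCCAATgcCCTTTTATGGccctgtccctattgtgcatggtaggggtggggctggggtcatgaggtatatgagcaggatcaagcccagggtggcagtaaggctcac
Acta1: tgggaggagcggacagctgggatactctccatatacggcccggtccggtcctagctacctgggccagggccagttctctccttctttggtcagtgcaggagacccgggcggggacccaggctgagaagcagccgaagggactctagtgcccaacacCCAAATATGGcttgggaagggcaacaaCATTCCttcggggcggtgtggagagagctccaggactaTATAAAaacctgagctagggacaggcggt
Nppa holds TATAAA 39 bases before its start and Acta1 holds it 29 bases before. The CArG boxes begin 97 bases before the start of Myl3 and 94 bases before that of Acta1. Of 63 contractile genes in the 3 sarcomere lists, 52 had a RefSeq window, and 7 of these (13.5%) held a CArG box against 1.50% of all 27457 windows and 1.21% of the 9344 windows of detected genes. A MEF2 site was found in 9 of the 52 (17.3%) against 3.07% of all windows and 1.42% of those of detected genes, and CATTCC in 14 (26.9%) against 11.8% and 9.99%. CCAAT was found in 26.9% of the contractile windows and 34.3% of all. A match is a description of the letters, and no binding was measured in these libraries.

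Nearly the whole measured sarcomere was present. All 17 thick filament and M-band genes, 15 of 17 thin filament genes and 28 of 29 Z-disc, costamere and desmin genes found in the count table were detected, against 44.6% of all genes. Their medians were 83.2, 102 and 91.7 RPKM, beside 17.7 RPKM for all genes. Together the 63 genes took 1.58%, 1.56% and 1.68% of the counts of GFP1, GFP2 and GFP3, a mean of 1.61% ± 0.061 (SD, n = 3). If an upper limit of 1.6 counts per base is assumed and undone, that mean becomes 1.86%, and Tnnt2 alone goes from 225 to 503 RPKM, so the height of the top genes is the least certain part of the scale.

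In the thick filament, the essential light chain Myl3 led with 159, 157 and 168 RPKM, followed by Mybpc3, the cardiac myosin-binding protein C, with 135, 135 and 148 RPKM. The atrial and fetal essential light chain Myl4 averaged 128 ± 7.77 RPKM (SD, n = 3), and the small muscle protein Smpx held rank 107. The M-band proteins Myom2 and Myom1 averaged 112 and 61.6 RPKM, while Myom3 averaged 2.20 RPKM. Titin was not analysed here. The muscle ubiquitin ligases Trim54, Trim55 and Trim63 averaged 98.5, 83.2 and 78.2 RPKM.

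In the thin filament, both sarcomeric actins stood side by side behind Tnnt2, followed by cardiac troponin I (Tnni3, 140 ± 7.02 RPKM) and cardiac troponin C (Tnnc1, 132 ± 5.99 RPKM; SD, n = 3). Nebulin, the thin filament ruler of skeletal muscle, averaged 0.414 RPKM and was not detected, while its cardiac relative Nebl averaged 60.9 RPKM. Lmod2, which elongates thin filaments in the heart, and Myot, a Z-disc protein, had 0 counts in all 3 libraries, which allows up to 0.158 CPM (counts scaled to library size) from counting error alone. Such zeros cannot be read as absence, since several genes used by every cell were also near 0, as given below.

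At the Z-disc, the stretch-responsive repressor Ankrd1 read 166, 162 and 178 RPKM and held rank 11, above every other gene of that list. Desmin (Des), the intermediate filament that links Z-discs, averaged 147 RPKM and Actn2 141 RPKM. Nexn, Myoz2, Fhl1, Pdlim5 and filamin C (Flnc) lay between 112 and 130 RPKM. The lowest detected member was Mypn with 36.4 RPKM, which is still more than the median gene.

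**Figure D2:**
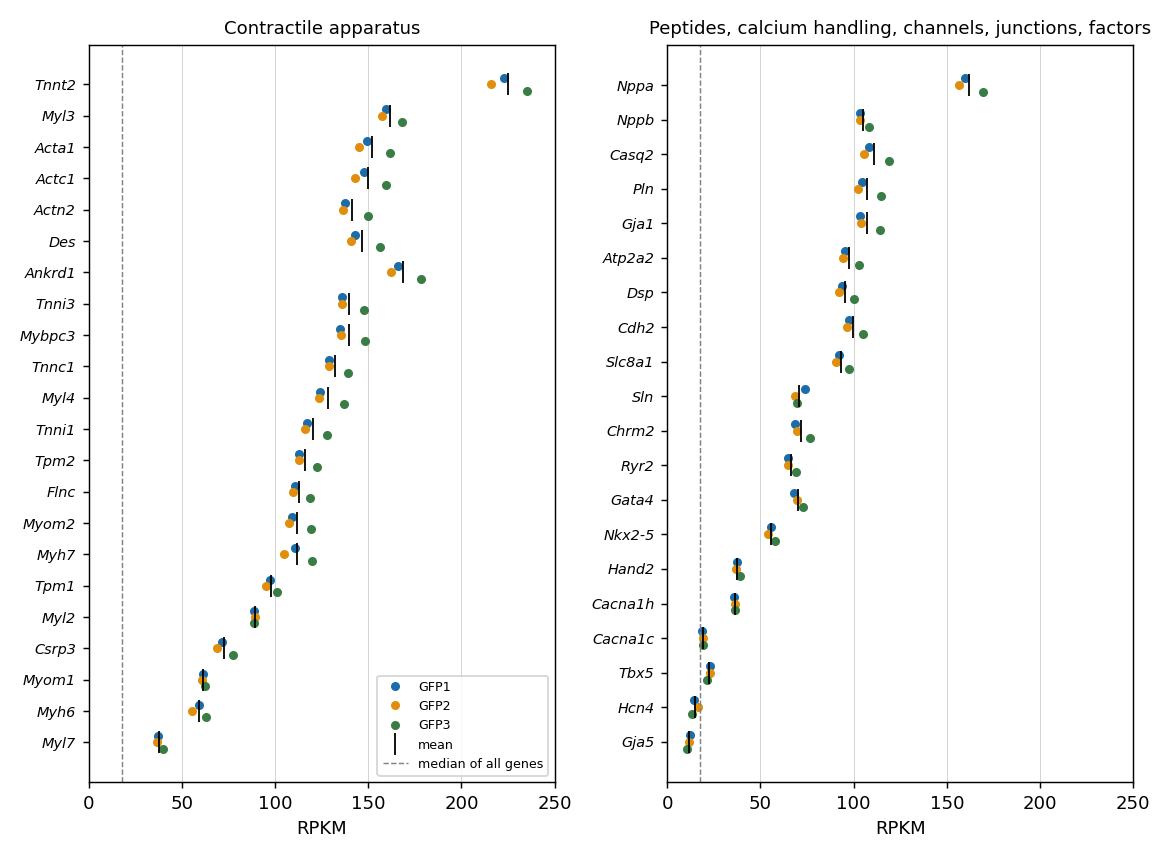
Deposited RPKM (horizontal axis, linear) of 22 contractile genes and 20 genes of peptides, calcium handling, channels, junctions and cardiac transcription factors in each GFP library (points) with the mean of the 3 (tick) and the median of all genes (dashed line). Tnnt2 lies alone above 200 RPKM, and abundant genes lie highest in GFP3. The pore, pacemaker and transcription factor genes lie at lower RPKM than the leading contractile genes, some near the median line and others above it.

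Fetal and adult isoforms were present together. Of 32 pairs of related genes, 29 had both genes in the RPKM table. The first-named gene, usually the adult or cardiac form, was higher in all 3 libraries in 18 pairs, the other gene in 9, and the order differed between libraries in 2. An exact two-sided sign-flip test over 3 libraries cannot go below p = 0.25, so these ratios carry no test. Each log2 ratio below is on the RPKM scale, with the SD over the 3 libraries.

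The beta myosin heavy chain Myh7, the slow form that prevails in the fetal rodent ventricle, read 111, 105 and 120 RPKM against 59.1, 55.2 and 62.9 RPKM for Myh6, the fast adult form. Myh7 was higher in every library, with a log2 ratio of Myh6 over Myh7 of -0.92 ± 0.01. The genes are near neighbours in sequence and the handling of reads that match both is not given in the sources used here. The slow skeletal and fetal troponin I, Tnni1, read 117, 116 and 128 RPKM, close behind Tnni3 with 136, 136 and 148 RPKM, a log2 ratio of Tnni3 over Tnni1 of 0.22 ± 0.01. Skeletal alpha-actin (Acta1), a fetal form in the rodent heart, and cardiac alpha-actin (Actc1) had a log2 ratio of Actc1 over Acta1 of -0.02, and their ranges over libraries overlapped. The ventricular regulatory light chain Myl2 exceeded the atrial Myl7 by 1.24 ± 0.07, and Myl3 exceeded Myl4 by 0.34 ± 0.04. These ratios rest on the gene lengths behind the RPKM: in counts without length, Myl2 over Myl7 turned to -0.87, Tnni3 over Tnni1 to -0.46 and Actc1 over Acta1 to 0.033. Tnnt2 exceeded the slow skeletal Tnnt1 by 3.01 ± 0.09, the largest distance among the contractile pairs with both genes in the RPKM table. Fast skeletal troponin C (Tnnc2), which is outside that table, had 0, 5 and 1 counts against 695, 719 and 655 for Tnnc1. Undoing the assumed limit of 1.6 counts per base takes the log2 ratio of Tnnt2 over Tnnt1 to 4.24.

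Outside the sarcomere, the order of a pair was as a rule the same in all 3 libraries. Connexin 43 (Gja1), the gap junction protein of working myocardium, exceeded connexin 40 (Gja5) by 3.22 ± 0.16. Hexokinase 1, the form of fetal heart, read 95.1, 95.7 and 101 RPKM against 37.8, 37.4 and 38.1 RPKM for the muscle form Hk2, a log2 ratio of Hk2 over Hk1 of -1.36 ± 0.04. The ubiquitous glucose carrier Slc2a1 likewise lay above the insulin-responsive Slc2a4 (log2 ratio of Slc2a4 over Slc2a1 of -0.46 ± 0.06), and Pfkp and Pgam1 lay above the muscle forms Pfkm and Pgam2. The muscle forms Ckm, Eno3 and Pygm instead lay above Ckb, Eno1 and Pygb, by 0.85 ± 0.08, 0.50 ± 0.06 and 0.84 ± 0.02. Muscle and liver forms of the carnitine palmitoyltransferase, Cpt1b and Cpt1a, were nearly level, with a log2 ratio of Cpt1b over Cpt1a of -0.09 ± 0.01. The pairs without a fixed order were the cytochrome oxidase subunits Cox6a2 and Cox6a1, and Cox8b and Cox8a.

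**Figure D3:**
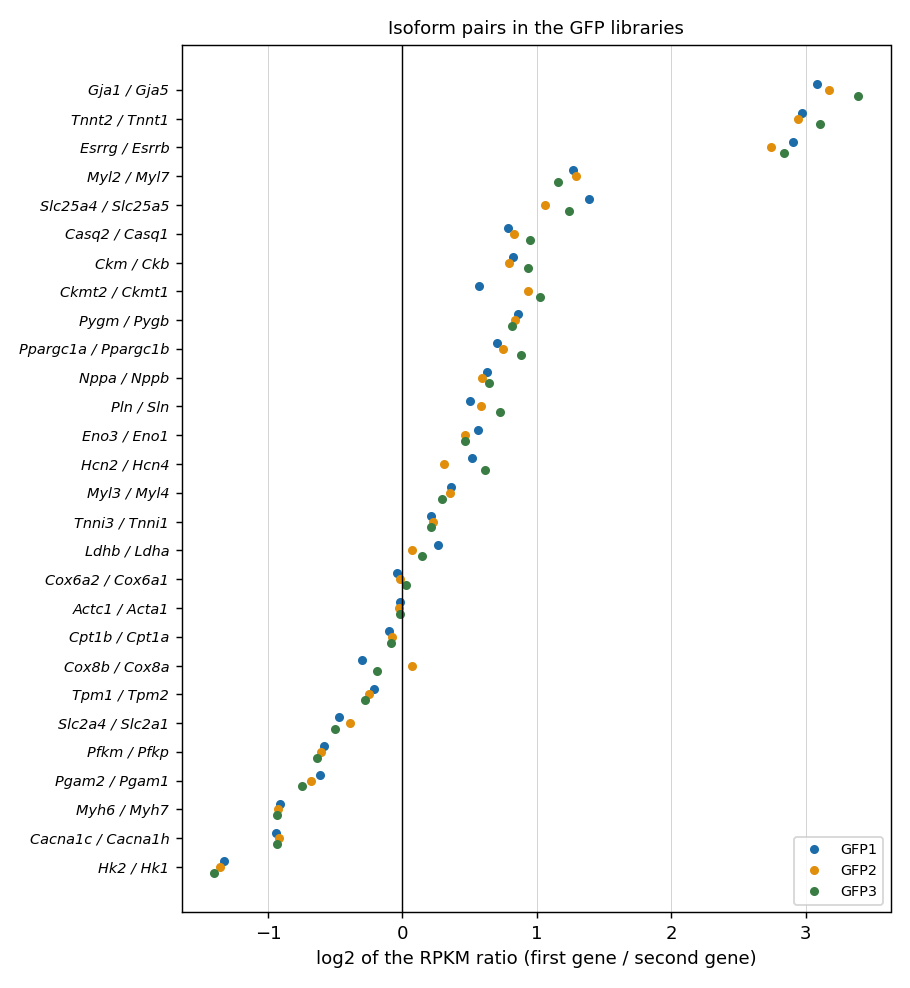
Log2 of the RPKM ratio of the first gene over the second (horizontal axis) for 28 of the 29 pairs with both genes in the RPKM table, with 1 point per GFP library and pairs ordered by their mean. Points right of 0 mean that the first gene is higher; the 3 points of most pairs lie on 1 side, from Gja1 over Gja5 near 3.22 to Hk2 over Hk1 near -1.36.

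All 16 fetal and stress genes of the heart were detected, with a median of 108 RPKM. Beside Ankrd1, Nppa and Acta1, the brain natriuretic peptide Nppb read 103, 103 and 108 RPKM, and the matrix-associated growth regulator Ccn2 read 102, 102 and 111 RPKM. The calcineurin inhibitor Rcan1 averaged 98.2 RPKM. The lowest member was Mybphl, an atrial myosin-binding protein, with 13.7 RPKM. Among chamber genes, the ventricular Myl2 (89.0 ± 0.52 RPKM) and the ventricular repressors Irx4 (23.1 RPKM) and Hey2 (21.9 RPKM) were detected, and so were 13 of 14 atrial markers found. Of the atrial markers, Sln, an inhibitor of the calcium pump, read 74.0, 68.3 and 69.5 RPKM, whereas Nr2f1, Hey1 and Gja5 averaged 4.64, 3.42 and 11.5 RPKM. The atrial potassium channel Kcna5 had 2, 3 and 1 counts. Whether the atrial transcripts came from atrial cells or from ventricular myocytes of this age was not tested.

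Calcium handling genes were detected in 28 of 29 cases, with a median of 52.6 RPKM. Casq2, which stores calcium in the sarcoplasmic reticulum, averaged 111 ± 6.98 RPKM, and phospholamban (Pln), which restrains the calcium pump, averaged 107 ± 6.51 RPKM (SD, n = 3). The pump itself, Atp2a2, read 95.3, 94.1 and 103 RPKM, and the release channel Ryr2 read 64.7, 64.8 and 69.1 RPKM. The sodium-calcium exchanger Slc8a1 averaged 93.3 RPKM. Surface calcium channels were lower: the L-type pore Cacna1c averaged 19.1 ± 0.24 RPKM, and the T-type pores Cacna1h and Cacna1g, prominent in the fetal ventricle, averaged 36.3 and 27.5 RPKM. Cacna1h was thus higher than Cacna1c in all 3 libraries (log2 ratio of Cacna1c over Cacna1h of -0.93 ± 0.01). The pacemaker-type pore Cacna1d averaged 0.406 RPKM and was not detected.

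Other ion channels lay near the median gene, with a list median of 21.1 RPKM and 22 of 27 genes detected. The pump regulator Fxyd1 led this list with 111 RPKM. The inward rectifier Kcnj2 read 28.3, 28.8 and 26.8 RPKM. Kcnip2, an auxiliary subunit of the channels of the transient outward current in adult ventricle, had 3, 1 and 2 counts. The pacemaker channels Hcn2 and Hcn4 averaged 20.4 ± 0.33 and 14.7 ± 1.42 RPKM. At the intercalated disc all 14 genes were detected, led by Gja1 (107 RPKM), N-cadherin (Cdh2, 99.8 RPKM), desmoplakin (Dsp, 95.2 RPKM) and beta-catenin (Ctnnb1, 94.7 RPKM).

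All 30 cardiac transcription factors were detected, with a median of 23.5 RPKM. The highest were Tead1 (70.9 RPKM), Gata4 (70.0 RPKM), Mef2a (61.7 RPKM), Nkx2-5 (55.8 RPKM) and Tbx20 (54.1 RPKM), regulators of the contractile programme. Isl1, a factor of cardiac progenitors, was lowest with 1.24 RPKM. Of 24 receptors found, 22 were detected, with a median of 13.6 RPKM. The gp130 cytokine co-receptor Il6st (76.0 RPKM) and the muscarinic receptor Chrm2 (71.5 RPKM) led, followed by Fgfr1 (44.7 RPKM), Thra (41.4 RPKM) and Igf1r (40.9 RPKM). The beta-adrenergic receptor Adrb1 averaged 12.0 RPKM and the angiotensin receptor Agtr1a averaged 2.36 RPKM. The factors that the other viruses of the study express were present in the control culture too: Nfya read 23.2, 23.3 and 22.0 RPKM and Nfe2l1 read 85.3, 82.7 and 86.3 RPKM.

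Energy metabolism filled much of the upper scale. Mitochondrially encoded messages took ranks 2 to 9, with ND2 at 218, ND5 at 218, COX2 at 211 and ND6 at 211 RPKM, and the list median was 193 RPKM. With the assumed limit of 1.6 counts per base undone, that median goes from 10.9 to 19.8 times the median of all genes. ND4 stood out below the others with 4.44, 11.5 and 10.8 RPKM, from 40, 107 and 85 counts. Of 45 nuclear genes of the respiratory chain and ATP synthase, 43 were detected, with a median of 93.1 RPKM, and 39 lay in the top 10% of all genes. They were led by the ATP synthase subunits Atp5f1b (149 RPKM) and Atp5f1a (130 RPKM) and the adenine nucleotide carrier Slc25a4 (127 RPKM). Cox7a1, the adult muscle subunit, had 4, 0 and 5 counts, whereas Cox7a2 averaged 93.6 RPKM. The hypoxia-linked subunit Cox4i2 averaged 0.997 RPKM, at the limit for detection, while Cox4i1 averaged 118 RPKM.

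All 20 genes of the tricarboxylic acid cycle were detected, with a median of 91.0 RPKM, led by Mdh1 (113 RPKM), Cs (111 RPKM), Idh2 (110 RPKM) and Sdha (109 RPKM). Fatty acid genes were detected in 27 of 30 cases with a median of 61.5 RPKM, and glucose and lactate genes in 34 of 34 with a median of 69.3 RPKM. The fatty acid list was led by Ucp2 (108 RPKM), Hadhb (104 RPKM) and Acadl (103 RPKM). The glucose list was led by aldolase A (Aldoa) with 126, 122 and 136 RPKM and by the lactate dehydrogenase subunit Ldhb with 121, 120 and 134 RPKM. Single genes ran from 0.213 to 108 RPKM in the fatty acid list and from 1.89 to 128 RPKM in the glucose list. Myoglobin (Mb), which stores oxygen, averaged 123 RPKM, and the ketone body enzyme Oxct1 averaged 95.3 RPKM.

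Some genes that all cells use were listed close to 0, and their values are given as listed. Triosephosphate isomerase (Tpi1) averaged 1.89 RPKM while its neighbours in glycolysis, Aldoa and Gapdh, averaged 128 and 93.3 RPKM. Rps6 averaged 2.24 RPKM and Hsp90aa1 1.46 RPKM, against 134 RPKM for Hsp90ab1. The ribosomal genes Rpl8 and Rplp2 had 3, 2, 1 and 10, 1, 0 counts, and Gpx4 and Echs1 had 1 count in GFP1 and none in the others. Ribosomal protein genes, which have many processed copies in the genome, ran from 2.24 to 128 RPKM. How reads that match several places were counted is not given in the sources used here, so low values of single genes are uncertain in all lists.

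Cell cycle transcripts were present at moderate levels. All 21 genes of the list of cell cycle and replication genes were detected, with a median of 50.7 RPKM. It was led by the cyclin Ccnd2 (93.7 RPKM), Pcna (85.2 RPKM) and the cyclin Ccnd3 (83.6 RPKM). The 21 genes of mitosis and cytokinesis were also all detected, with a median of 20.7 RPKM and a range of 2.36 to 37.8 RPKM. Anln read 35.4, 39.3 and 38.5 RPKM and Mki67, a marker of cycling cells, read 29.0, 30.8 and 30.9 RPKM. The inhibitor Cdkn1a, at 98.8 RPKM, exceeded every cyclin of these lists. Which cells carried the cycling transcripts cannot be told from bulk libraries.

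Stress genes lay high on the scale. The heat shock list had a median of 96.0 RPKM with 22 of 22 genes detected, led by Hsp90ab1 and Hspa5 (127 RPKM), the chaperone of the endoplasmic reticulum. The small heat shock proteins of muscle, Hspb1, Hspb2, Hspb7 and Cryab, lay between 97.9 and 122 RPKM. The oxidative stress list had a median of 81.1 RPKM, led by Txn1 (127 RPKM), Sod1 (108 RPKM) and Prdx2 (104 RPKM), and Hmox1, which degrades heme, averaged 102 RPKM. Immediate early genes were lower, with a median of 28.3 RPKM from Egr3 at 0.462 to Btg2 at 76.9 RPKM. Inflammatory mediators had a median of 9.30 RPKM, and 13 of 19 were detected. Interleukin 1 beta (Il1b) had 0 counts in all 3 libraries, and Tnf had 1, 2 and 2.

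The 3 libraries differed in a small set of genes, among them interferon-response genes and Hspa1b. Of 13543 genes with a mean of at least 10 counts, 225 (1.66%) varied among the libraries beyond counting error by a chi-square test of counts with Benjamini-Hochberg adjustment at 0.05, and these are called variable. GFP1 and GFP2 were closest, with a median chi-square of 0.299 where counting error alone gives 0.455. That median was 0.457 below 0.05 counts per base and 0.126 above 0.5. Since 121 genes still differed between them, they were kept as separate samples. A further measure, the common biological coefficient of variation from edgeR, was 2.99% over the 3 libraries and 0.988% without GFP3. Of the 658 genes above 0.5 counts per base, 52 were called variable, 50 of them highest in GFP3. Over all 13543 genes tested, GFP3 was highest in 3914. Genes above 0.5 counts per base read higher in GFP3 as a whole, with bin medians of the log2 ratio to GFP2 from 0.097 to 0.15. The contractile and calcium genes among the variable genes, Myh6, Myh7, Mybpc3, Myom2, Actn2, Flnc, Vcl, Ryr2 and Atp2a2, all read highest in GFP3. By the same chi-square test, 0 of these 9 were variable (2 at an unadjusted 0.05) with expected counts taken within 20 bins of counts per base. This alternative was added after seeing the data. Within the bin above 0.5 counts per base, pairs of libraries had median chi-squares of 0.126, 0.163 and 0.207, where counting error alone gives 0.455. The test is therefore strict for genes with many counts per base, and the 0 of 9 cannot be read as a lack of spread. Without GFP3, 0 of 61 contractile genes tested were variable (2 at an unadjusted 0.05), beside 121 of all 13684 genes tested. With GFP3 it was 7, beside 225 of all 13543. Few genes of any kind were variable without GFP3, so the 0 of 61 cannot be read as particular to contractile genes. For those with many counts per base the strictness of the test applies here too.

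In the interferon list, 9 of 23 genes tested were variable, beside 1.66% of all genes tested, and 7 of 23 with the expectation within bins. It was 9 without GFP3, 2 without GFP1 (Mx2 and Usp18) and 1 without GFP2 (Mx2). Mx2, an antiviral GTPase, had 125, 440 and 211 counts in GFP1, GFP2 and GFP3, or 19.1, 64.9 and 36.9 CPM. Usp18, which limits interferon signalling, had 64, 183 and 87 counts, and the transcription factor Irf7 had 304, 486 and 324. GFP2 was highest in each, and per library count GFP2 was highest in 22 of the 23 genes and GFP1 lowest in 17. Over all 13543 genes tested, GFP2 was highest in 5002 and GFP1 lowest in 3437. Summed over the list, the level was 387, 509 and 429 RPKM. All 3 cultures carried the same virus by label. The interferon message Ifnb1 had 0, 1 and 0 counts, which cannot be read as absence, and other interferon messages are not reported here. Most interferon genes lay near the middle of the scale, with a list median of 16.8 RPKM, and Ifi27 was highest with 73.3 RPKM.

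**Figure D4:**
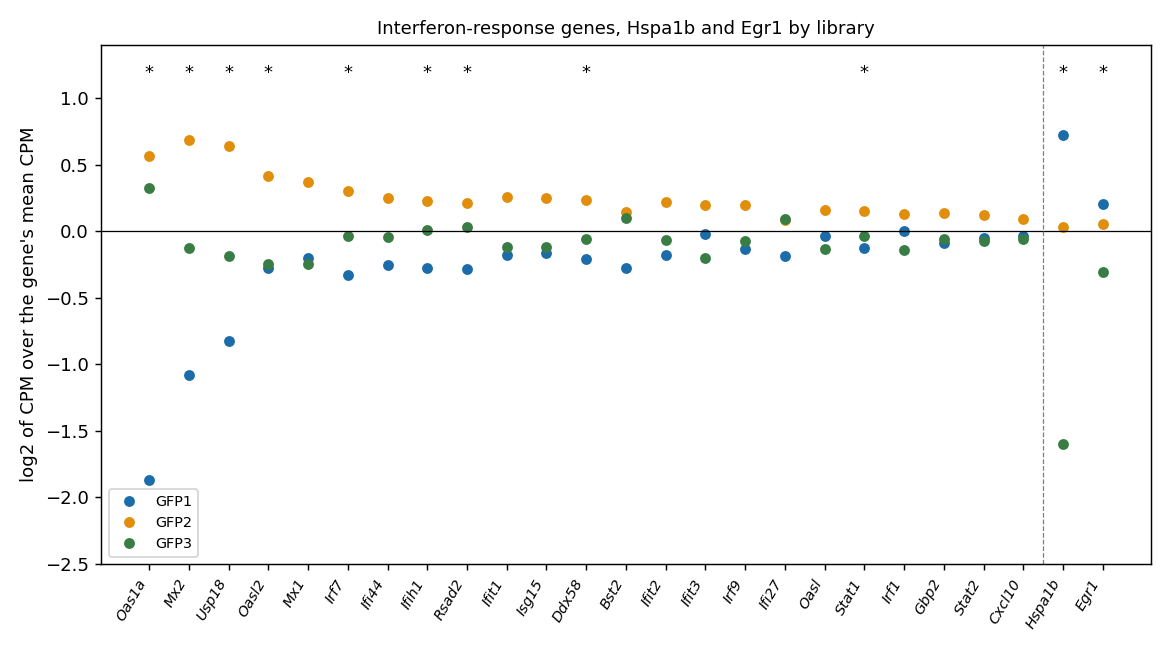
Log2 of each library's CPM over the gene's mean CPM (vertical axis) for the 23 interferon-response genes tested, ordered by their coefficient of variation, and, right of the dashed line, Hspa1b and Egr1. Asterisks mark genes called variable. GFP2 lies above the other libraries in 22 of the 23 genes, beside 5002 of all 13543 genes tested. Hspa1b is highest in GFP1 and lowest in GFP3.

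The inducible heat shock gene Hspa1b had 1624, 1047 and 285 counts, or 101, 63.0 and 20.4 RPKM, a range of 4.97-fold per library count, whereas the constitutive Hspa8 read 38.5, 45.8 and 41.1 RPKM. Hspa1b was highest in GFP1, in which the interferon genes were lowest. Its near-identical copy Hspa1a was not analysed here, so the 2 cannot be separated. Egr1, an immediate early factor, had 364, 339 and 223 counts and was likewise lowest in GFP3. Hspa1b stayed variable whichever library was left out, Egr1 only when GFP2 was. Among metabolic genes, Pdha1, of pyruvate dehydrogenase, had 1224, 1813 and 1709 counts and Cox6b1 226, 339 and 327, both lowest in GFP1. Col1a2 had 6, 117 and 59 counts, and the cytoskeletal Actg1 had 243, 258 and 467. Genes with many copies in the genome, such as Actg1 and Rpl6 (448, 633 and 682 counts), are uncertain for the reason given above.

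Transcripts of other heart cell types were present, mostly below the myocyte genes. In bulk libraries, fewer cells of a type and less RNA per cell cannot be told apart, so these levels are no measure of cell numbers. The 11 cardiomyocyte markers found summed to 1415, 1392 and 1514 RPKM, and the 12 fibroblast markers to 266, 261 and 269 RPKM. The list medians were 140 RPKM for cardiomyocyte markers, with 11 of 11 above the median gene, and 10.2 RPKM for fibroblast markers, with 4 of 12. Among the fibroblast markers, the collagens Col1a1 and Col3a1 averaged 85.8 and 67.7 RPKM, and Postn and Dcn 34.4 and 25.4 RPKM. The fibroblast surface and lineage markers Pdgfra and Tcf21 averaged 5.09 and 2.52 RPKM, below the median gene. Col1a2, whose protein pairs with that of Col1a1, averaged 2.12 RPKM, from 6, 117 and 59 counts in GFP1, GFP2 and GFP3. It was called variable, and low values of single genes are uncertain as given above.

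The 12 smooth muscle and pericyte markers summed to 416, 410 and 416 RPKM, of which Acta2 gave 110, 108 and 114 RPKM and Tagln 102, 98.5 and 108 RPKM. Both are also known in fetal myocytes and activated fibroblasts. Myh11, the smooth muscle myosin, averaged 16.7 RPKM, and the pericyte markers Rgs5 and Kcnj8 averaged 0.896 and 0.375 RPKM. Of 14 endothelial markers found, 9 were detected with a median of 3.56 RPKM over those listed. Kdr and Eng led with 25.6 and 25.1 RPKM, the endothelial cadherin Cdh5 averaged 2.99 RPKM and Vwf 1.03 RPKM, and Robo4 and Cldn5 had 0 counts. Their sum was lowest in GFP3, with 89.3, 87.4 and 80.1 RPKM. As given above, the median log2 ratio of GFP3 against GFP2 was -0.14 over the 3196 genes below 0.05 counts per base. Between 0.1 and 0.2 counts per base, where genes at the level of Kdr and Eng lie, it was -0.069. A change in endothelial cells cannot be told apart from this shift.

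Markers of lymphocytes and red cells were close to 0. Of 13 macrophage and leukocyte markers, 6 (46.2%) were detected, all below the median gene. That is near the 44.6% of all genes. The macrophage list summed to 41.8, 38.5 and 33.2 RPKM, with Lyz2 at 10.7 and Cd68 at 10.7 RPKM and Csf1r at 7.67 RPKM, while Cx3cr1 had 0 counts and Cd163 1 count in all. Among 7 lymphocyte markers, Cd4 alone was detected (2.49 RPKM) and Cd3e, Ms4a1 and Nkg7 had 0 counts. The erythroid genes Hba-a1 and Hbb-b1 had 0 counts. Epicardial genes were low apart from Krt18 (53.5 RPKM), which is not restricted to that layer, and Wt1 averaged 2.30 RPKM. The skeletal muscle factors Myf5 and Pax7 had 0 counts and Myod1 averaged 0.059 RPKM. Of the skeletal forms, Mylpf was highest with 16.2 RPKM.

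Matrix genes were abundant. Of 39 genes found, 37 were detected with a median of 51.4 RPKM, led by Sparc (147 RPKM), Serpinh1 (125 RPKM), Fn1 (108 RPKM), Col4a2 (103 RPKM) and Col4a1 (92.7 RPKM). Sparc binds collagen, Serpinh1 is a collagen chaperone, and the type IV collagens build basement membranes, which myocytes themselves also lay down. Col15a1, at 0.072 RPKM, was the lowest.

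**Figure D5:**
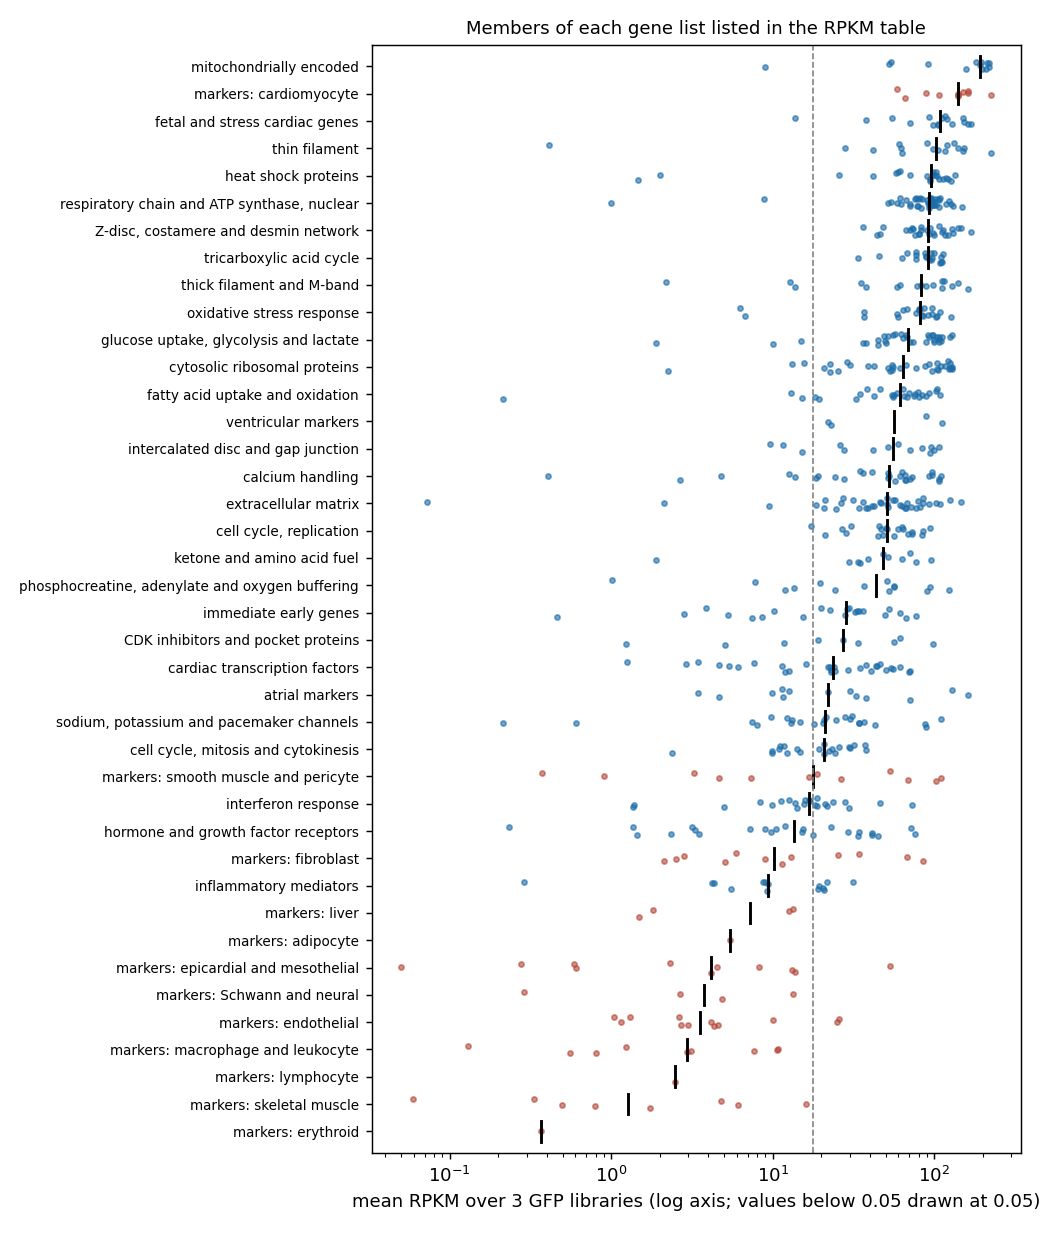
Mean RPKM over the 3 GFP libraries (horizontal log axis) of every list member listed in the RPKM table (points), with the list median (black bar) and the median of all genes, 17.7 RPKM (dashed line). Blue lists are functional groups, red lists are cell type markers, and members absent from the RPKM table are not drawn. Cardiomyocyte, mitochondrial and contractile lists lie at the top, and endothelial, leukocyte, skeletal and erythroid markers lie left of the dashed line at the bottom, apart from a few members.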

How the data were processed

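Raw counts per gene and RPKM values, both tables deposited by the authors, were read for the GFP columns. Per the submitters' processing notes, FastQC 0.11.4, featureCounts 1.6.0 and edgeR 3.20.5 were used with builds rn6, mm10 and GRCm38. For the aligner, annotation, strand setting and treatment of duplicate and multiply matching reads, details were not given in the sources used here. RPKM recomputed from counts, length and library total differed from the deposited RPKM by a median of 0.144%. In GFP3, 102 genes with a count of 0 are listed above 0 RPKM.

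Levels, ranks and ratios are from the deposited RPKM. Spread was tested on counts (Python 3.11.15, SciPy 1.17.1), after a test on simulated data, and the coefficient of variation comes from edgeR 4.0.16 in R 4.3.3. Gene lists held 726 genes, of which 698 were found, 2 through the RefSeq gene table. Genes not found were not analysed here. The members and lists were chosen with earlier results of these data known. Named genes were all isoform pairs, the 4 markers, the 20 highest genes, per list the 5 highest, 2 lowest detected, those without counts and up to 3 variable members, the 10 most variable genes of at least 10 CPM, Nfya and Nfe2l1. Other genes were named after their values were seen. Intervals and floors cover counting error only. Some genes of the lists are not reported here by name, and 1 isoform pair is not drawn.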

Additional observations from a re-analysis of the deposited data

How the results depend on the processing

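The count of variable genes was 225, and 121 to 164 when a library was left out, lowest without GFP3. It was 330 with DESeq2 size factors, 310 with TMM-scaled totals, 181 from a mean of 50 counts, 265 with no filter, 172 at a threshold of 0.01, 162 among genes below 0.5 counts per base and 152 with expected counts within bins. The coefficient of variation ranged from 0.988% to 3.79% when a library was left out. The contractile share was 1.48% of summed RPKM and 1.86% with the assumed limit undone. Of the 100 highest genes, 4 stayed among the 100 highest when ranked by CPM, which is not scaled by length. Under the other alternatives 98 to 100 stayed. Those rescale or transform the same length-scaled values, drop low genes or leave out a library. They could hardly reorder the top genes, so the 98 to 100 are no measure of how certain the ranks are. Ratios of counts without length turned the log2 ratio of Tnni3 over Tnni1 to -0.46, Actc1 over Acta1 to 0.033, Myl2 over Myl7 to -0.87, Tpm1 over Tpm2 to 0.82, Hcn2 over Hcn4 to -0.64 and Ldhb over Ldha to -0.10. Without GFP1, Cox6a2 over Cox6a1 went from -0.0093 to 0.0060, both within its SD of 0.035. No other alternative run turned a pair, but most of them could not. A pseudocount or undoing the assumed limit keeps the order of genes within a library. Leaving out a library cannot turn a pair whose order was the same in every library. No paired analysis was possible because a single group of libraries was used.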
